A study of Homo sapiens with 4 samples.

Results

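The 10 genes described here encode enzymes that modify collagen while it is made and after it is secreted, together with the chaperone that accompanies it. They were chosen by symbol as LOX, LOXL1, LOXL2 and LOXL4 (lysyl oxidases), PLOD1, PLOD2 and PLOD3 (lysyl hydroxylases), P4HA1 and P4HA2 (alpha subunits of prolyl 4-hydroxylase) and SERPINH1 (a collagen chaperone), and they make up 10 of the 19475 gene symbols in the table. RNA-seq was performed on SKOV3, an established cell line from a human ovarian carcinoma. In total, 4 libraries were analysed, 2 of cells on a tissue culture plate (TCP, labelled day 0) and 2 of tumor spheroids on polymer X, a thin polymer film coated on the plate (labelled day 8). The culture protocol in the labels names serum replacement for all 4 libraries, whereas the study's methods name fetal bovine serum for the maintenance of SKOV3, so substrate, culture time and possibly medium cannot be told apart between the groups. The RNA came from whole cultures of 1 cell line, and more transcript per cell and more cells carrying a transcript cannot be told apart.

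Collagen chains are hydroxylated in the endoplasmic reticulum before they fold. Prolyl 4-hydroxylases hydroxylate prolines, which stabilises the triple helix, and lysyl hydroxylases convert lysines to hydroxylysines, which carry sugars and form strong cross-links. Both enzyme families need iron, oxygen, 2-oxoglutarate and ascorbate. Outside the cell, copper-dependent lysyl oxidases oxidise lysines and hydroxylysines, and the aldehydes formed join neighbouring chains. Several of these genes, LOX, LOXL2, P4HA1, P4HA2, PLOD1 and PLOD2 among them, are known from other work as targets of the hypoxia-inducible factors.

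LOX, P4HA1 and PLOD1 rose on polymer X, by 1.88, 1.20 and 1.03 on the log2 scale. P4HA2, LOXL1 and PLOD2 were 1.74-, 1.62- and 1.49-fold higher in mean FPKM, which passed the adjusted p but not the minimum fold change. SERPINH1, LOXL2 and PLOD3 did not pass the test, and LOXL4 was close to the limit of detection. The log2 fold changes were those of FPKM + 1, where FPKM is the number of sequenced tags on a transcript scaled to its length and to the size of the library. Calls of higher or lower needed an adjusted p under 0.05 (limma, Benjamini-Hochberg over 11964 genes tested) and a minimum log2 fold change of 1 in either direction. Of the 9 tested members, 3 were called higher, against 10.7% of all tested genes, and 0 were called lower, against 9.45% of all tested genes. No tested member was lower at an unadjusted p under 0.05 either, with a count of 0. LOXL4, which was not tested, was lower by its tags, with 41 on TCP and 7 on polymer X. Without the fold change minimum, 6 of 9 were higher, against 37.4% of all tested genes, and 0 were lower, against 43.6%. The 9 genes had a median log2 fold change of 0.67, and the median was -0.06 over all tested genes. The groups did not overlap for 7 of the 9 (77.8%), below the share of 90.4% over all tested genes. The members were chosen with earlier results of these data in view, so these counts are a description.

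The promoters of the 3 genes called higher are shown because background knowledge places hypoxia response elements in genes of this kind. The sequences are the 250 bases before the RefSeq gene start (GRCh38.p14), written from 5′ to 3′ on the strand of the gene, and capitals mark ACGTG or GCGTG, the core of such an element, on either strand. LOX lies on the minus strand at chr5:122078260-122078509, P4HA1 on the minus strand at chr10:73096867-73097116 and PLOD1 on the plus strand at chr1:11934467-11934716.
LOX: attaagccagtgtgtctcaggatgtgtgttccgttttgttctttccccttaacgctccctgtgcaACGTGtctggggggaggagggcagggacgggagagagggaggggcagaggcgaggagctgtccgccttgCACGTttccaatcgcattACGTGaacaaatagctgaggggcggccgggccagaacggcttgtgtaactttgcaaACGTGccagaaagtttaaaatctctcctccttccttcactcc
P4HA1: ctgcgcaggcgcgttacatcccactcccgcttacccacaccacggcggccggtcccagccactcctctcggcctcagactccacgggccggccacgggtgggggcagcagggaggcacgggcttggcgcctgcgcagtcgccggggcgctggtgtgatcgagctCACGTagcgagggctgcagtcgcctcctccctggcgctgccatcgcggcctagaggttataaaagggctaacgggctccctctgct
PLOD1: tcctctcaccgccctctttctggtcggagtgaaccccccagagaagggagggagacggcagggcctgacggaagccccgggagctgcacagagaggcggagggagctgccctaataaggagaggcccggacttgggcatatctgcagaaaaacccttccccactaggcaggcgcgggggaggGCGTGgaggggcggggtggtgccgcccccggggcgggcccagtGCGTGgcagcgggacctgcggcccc

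The LOX window held 4 matches, all of ACGTG, and 0.106% of 27305 promoters of the same length held 4 or more. The P4HA1 window held 1 match, of ACGTG. Of all promoters, 18.6% held 1 or more of ACGTG and 43.1% held 1 or more of either motif. The PLOD1 window held 2 matches, both of GCGTG, and 16.3% of promoters held 2 or more matches of either motif. PLOD2 had 3 matches, 2 of them of ACGTG. At least 3 matches of either motif were held by 5.65% of promoters, and at least 2 of ACGTG by 2.68%. Each share was taken at the count found for the gene itself, and LOX had the most matches of the 9 windows. The shares are therefore a description and not a test. The windows of LOXL1, LOXL4, PLOD3, P4HA2 and SERPINH1 had 0 matches. Thus 4 of 9 windows had a match of either motif, near the share of 43.1% over all promoters. A CACGTG, which reads as ACGTG on both strands, was counted once. In all, 9 of the 10 genes were matched to a promoter, and LOXL2 was not. A match is a run of letters, and binding was not measured.

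The order of the transcripts by level, which FPKM allows because it is per length, changed between the groups. On TCP, LOXL2 was first at a mean FPKM of 175, followed by PLOD1, SERPINH1, PLOD2, P4HA1, P4HA2, LOXL1, LOX, PLOD3 and LOXL4. On polymer X, PLOD1 was first at 204 and LOXL2 second at 181, and P4HA1 stood before PLOD2 and LOX before LOXL1. The libraries of neighbours in the order overlapped for 1 pair, SERPINH1 and P4HA1 on polymer X. With 2 libraries in a group, absence of overlap is a weak criterion. The order is that of the highest transcript of each gene. With the FPKM of all listed transcripts summed, which counts shared tags again for each transcript, PLOD1 (194) stood above LOXL2 (175), P4HA2 (166) above P4HA1 (155) and LOX (39.6) above LOXL1 (22.7) on TCP.

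**Figure D1:**
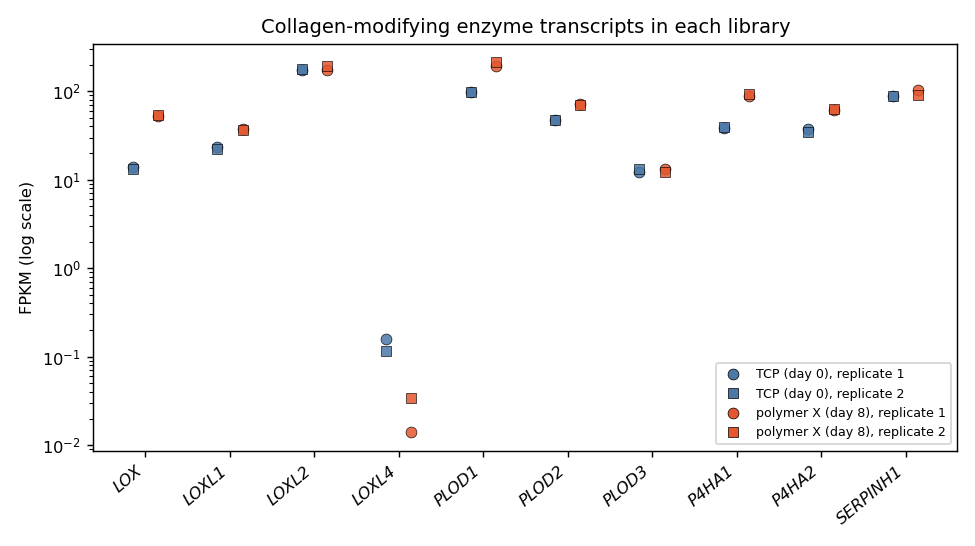
FPKM on a log axis for each of the 10 genes in the 4 libraries, with circles for replicate 1 and squares for replicate 2, blue for TCP and red for polymer X. LOX moved from 13.4 and 14.1 to 52.6 and 53.7, LOXL2 stayed between 172 and 191, and LOXL4 was under 0.2 throughout.

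Of the 3 lysyl oxidases tested, LOX had the largest log2 fold change. LOX (NM_002317, hg19 chr5:121398890-121414196) acts on collagen and elastin. Its FPKM was 14.1 and 13.4 in TCP replicates 1 and 2 and 52.6 and 53.7 in polymer X replicates 1 and 2. Both polymer X libraries lay far above both TCP libraries, a 3.87-fold difference of the means and a log2 fold change of 1.88 ± 0.06 (SE, limma adjusted p = 6.1e-09). The 3 LOX transcripts listed gave values between 1.86 and 1.88.

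LOXL1 (NM_005576, hg19 chr15:74218799-74244482) is known for its part in elastic fibres. Its FPKM was 23.3 and 22.1 on TCP and 37.3 and 36.4 on polymer X. The groups did not overlap, as for 90.4% of all tested genes, and the log2 fold change was 0.67 ± 0.06 (SE, limma adjusted p = 3.3e-06), below the minimum. By the highest transcript, LOX was below LOXL1 on TCP, with a ratio of 0.606 and 0.604 in the 2 libraries, and above it on polymer X, with a ratio of 1.41 and 1.48.

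LOXL2 (NM_002318, hg19 chr8:23154410-23261722), a lysyl oxidase with scavenger receptor domains, had an FPKM of 172 and 177 on TCP and 172 and 191 on polymer X. The groups overlapped, and the log2 fold change was 0.05 (95% interval -0.10 to 0.20, adjusted p = 0.496 by limma). Under quantile normalization it was 0.41.

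LOXL4 (NM_032211, hg19 chr10:100007443-100028007) had an FPKM of 0.157 and 0.116 on TCP and 0.014 and 0.034 on polymer X, and it did not pass the filter on low values. The step size of the values puts these at 22 and 19 tags on TCP and 2 and 5 tags on polymer X. The summed counts, 41 and 7, give a ratio of polymer X to TCP of 0.176 (exact 95% interval 0.0667 to 0.397, counting error only). LOXL3, the remaining member of the family and not among the 10 genes, had an FPKM of 2.04 and 1.66 on TCP and 3.13 and 2.87 on polymer X, giving a log2 fold change of 0.49 (adjusted p = 0.00068 by limma).

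Within the summed FPKM of the 4 lysyl oxidases, LOXL2 made up 82.7% ± 0.848 (SD, n = 2) on TCP and 66.8% ± 1.59 (SD, n = 2) on polymer X. The share of LOX was 6.51% ± 0.322 (SD, n = 2) and 19.6% ± 0.670 (SD, n = 2). LOXL1 held 10.8% and 13.6%. The ratio of LOXL2 to LOX was 12.2 and 13.3 in the TCP libraries and 3.27 and 3.55 in the polymer X libraries. The sum of the family was 1.28-fold higher on polymer X, at 271 ± 13.5 FPKM against 211 ± 2.44 (SD, n = 2 each). These shares were compared as values, since the smallest two-sided p of an exact permutation test is 0.333 with 2 libraries per group.

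**Figure D2:**
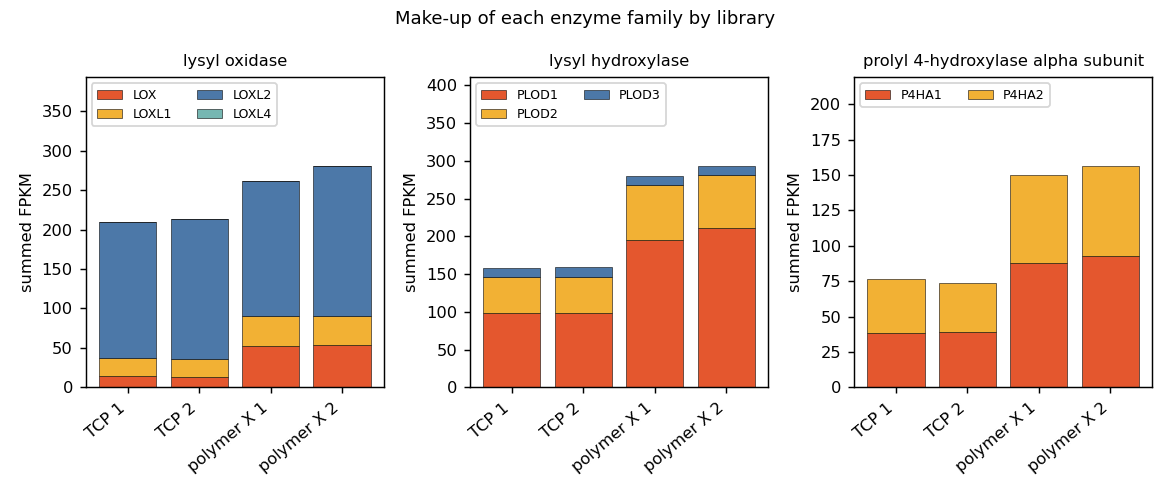
Stacked bars of FPKM in each library for the lysyl oxidases, the lysyl hydroxylases and the alpha subunits of prolyl 4-hydroxylase, each bar divided by gene. LOXL2 held 82.7% of the lysyl oxidase sum on TCP and 66.8% on polymer X, and PLOD1 held 62.1% and 70.9% of the lysyl hydroxylase sum.

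Among the lysyl hydroxylases, PLOD1 rose while PLOD3 did not pass the test. PLOD1 (NM_000302, hg19 chr1:11994724-12035599) acts on lysines of the triple helix. Its FPKM was 98.7 and 99.0 on TCP and 196 and 212 on polymer X. The groups were far apart, with a log2 fold change of 1.03 ± 0.06 (SE, limma adjusted p = 3.1e-07). This value lay just past the minimum of 1, and without polymer X replicate 2 it was 0.98 and the gene was no longer called.

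PLOD2 (NM_182943, hg19 chr3:145787228-145879282) is known to hydroxylate lysines in the telopeptides, the short ends of the collagen molecule. It had an FPKM of 47.1 and 47.7 on TCP and 71.8 and 69.7 on polymer X. The groups did not overlap, as for 90.4% of all tested genes, and the log2 fold change was 0.57 ± 0.05 (SE, limma adjusted p = 7.4e-06). Under quantile normalization it was 0.88. The ratio of PLOD1 to PLOD2 was 2.09 and 2.08 on TCP and 2.72 and 3.04 on polymer X.

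PLOD3 (NM_001084, hg19 chr7:100849258-100861011) also carries glycosyltransferase activity. Its FPKM was 12.3 and 13.3 on TCP and 13.2 and 12.1 on polymer X. The groups overlapped, and the log2 fold change was -0.02 (95% interval -0.18 to 0.13, adjusted p = 0.792 by limma). The 5′ end of ZNHIT1, a gene on the opposite strand, overlaps that of PLOD3 only at hg19 chr7:100860985-100861011, a short stretch of a transcript of 2956 bases. The counting did not separate strands there. The sum of the 3 lysyl hydroxylases was 159 ± 1.33 FPKM on TCP and 287 ± 9.15 on polymer X (SD, n = 2 each), a 1.80-fold difference.

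Of the alpha subunits of prolyl 4-hydroxylase, P4HA1 was called higher on polymer X, and P4HA2 passed the adjusted p but not the minimum fold change. The alpha subunit carries the active site and is held in solution by the beta subunit P4HB, also known as protein disulfide isomerase. P4HA1 (NM_001017962, hg19 chr10:74766980-74856732) had an FPKM of 38.7 and 39.1 on TCP and 88.1 and 92.8 on polymer X. It rose with a log2 fold change of 1.20 ± 0.06 (SE, limma adjusted p = 6.9e-08). Over its 4 transcripts the value lay between 1.19 and 1.20.

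P4HA2 (NM_001017974, hg19 chr5:131528304-131563556) had an FPKM of 37.5 and 34.8 on TCP and 61.8 and 63.8 on polymer X. The groups did not overlap, as for 90.4% of all tested genes. The log2 fold change of 0.78 ± 0.06 (SE, limma adjusted p = 1.7e-06) was under the minimum. Under quantile normalization it was 1.09 and P4HA2 was called higher. The ratio of P4HA1 to P4HA2 was 1.03 and 1.12 on TCP and 1.42 and 1.46 on polymer X.

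P4HB had an FPKM of 341 and 352 on TCP and 345 and 349 on polymer X, with a log2 fold change of 0.0019 (adjusted p = 0.979 by limma). The ratio of P4HB to the sum of both alpha subunits was 4.47 and 4.76 on TCP and 2.30 and 2.23 on polymer X. P4HA3, the third alpha subunit and not among the 10 genes, was lower in FPKM, at 3.72 and 3.88 on TCP and 2.12 and 1.91 on polymer X. Its log2 fold change of -0.67 (adjusted p = 3.0e-05 by limma) was under the minimum.

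SERPINH1 (NM_001235, hg19 chr11:75273101-75283849) encodes a chaperone of the endoplasmic reticulum that binds folded procollagen. Its FPKM was 87.4 and 87.5 on TCP and 102 and 91.7 on polymer X. The groups did not overlap, as for 90.4% of all tested genes. The polymer X libraries differed from each other by more than the lower of them differed from TCP. The log2 fold change was 0.15 (95% interval -0.00058 to 0.29, adjusted p = 0.062 by limma). Under quantile normalization it was 0.48, and it was 0.067 without polymer X replicate 1 and 0.23 without polymer X replicate 2.

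**Figure D3:**
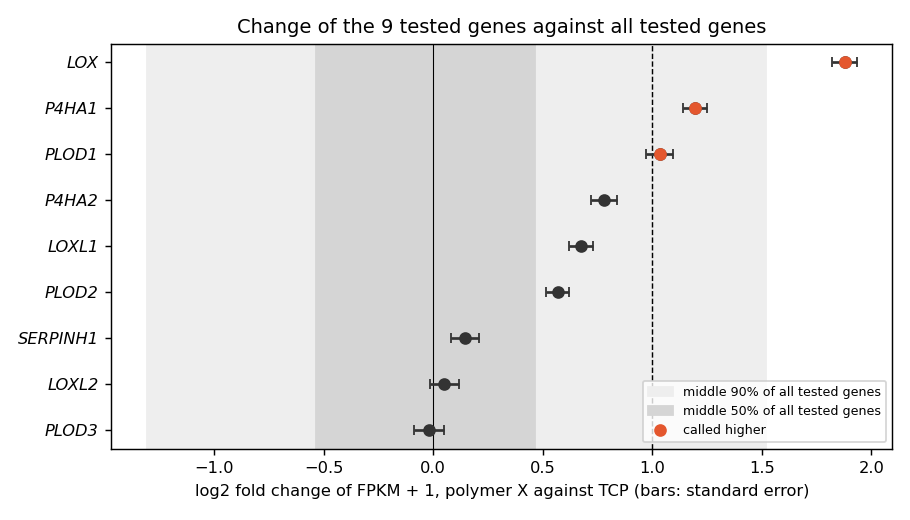
Log2 fold change of FPKM + 1, polymer X against TCP, for the 9 tested genes, with the standard error as bars, the range of the middle 50% and 90% of all tested genes as shading and the minimum of 1 as a dashed line. LOX at 1.88, P4HA1 at 1.20 and PLOD1 at 1.03 lay past the line, and LOX lay past the upper 5% limit of 1.52.

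The transcripts of PLOD2, P4HA1 and P4HA2 in the table differ by short coding exons, and the difference in tags between 2 transcripts of a gene gives the tags on these exons. The PLOD2 exon was planned for, and those of P4HA1 and P4HA2 were chosen after the values were seen. The sequences below come from GENCODE release 29 transcripts matched by RefSeq identifier (GRCh38, minus strand), and they are shown because each marks 1 of the forms compared. In PLOD2, capitals mark exon 14 of 20 (chr3:146077862-146077924, 63 bases), which is present in the long form of the enzyme and absent from the short form, with 15 bases of the exons joined to it on either side. In P4HA2, the 2 exons exclude each other, one of 60 bases (chr5:132198321-132198380) and one of 66 bases (chr5:132198206-132198271), and capitals mark bases with no identical partner when both are aligned end to end.
PLOD2 exon 14: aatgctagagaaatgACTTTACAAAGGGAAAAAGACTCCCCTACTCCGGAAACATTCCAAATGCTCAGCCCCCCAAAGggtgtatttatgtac
P4HA2 60-base exon: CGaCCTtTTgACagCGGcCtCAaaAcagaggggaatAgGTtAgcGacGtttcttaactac
P4HA2 66-base exon: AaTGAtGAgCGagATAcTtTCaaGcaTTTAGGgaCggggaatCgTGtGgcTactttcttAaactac

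The long form of PLOD2 is the form known to act on telopeptides. On its exon, 142 of 7308 and 147 of 8647 transcript tags were found on TCP and 211 of 11596 and 201 of 11446 on polymer X. These were 1.94% (Wilson 95% interval 1.65 to 2.29) and 1.70% (1.45 to 1.99) on TCP. On polymer X they were 1.82% (1.59 to 2.08) and 1.76% (1.53 to 2.01), between the TCP values. Length alone would give 1.54%, and the density of tags on the exon was 1.11 to 1.27 times that on the rest of the transcript. A change in the use of this exon was not detectable at this depth.

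P4HA1 has an exon of 54 bases that the transcript NM_001142596 lacks. It held 2.46% and 2.49% of the transcript tags on TCP and 2.35% and 2.50% on polymer X, against 1.87% by length, and the groups overlapped. The intervals cover counting error only, and they are too narrow if tags came as mates of a pair.

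For the mutually exclusive exons of P4HA2, the form with the 60-base exon had more tags than the form with the 66-base exon in every library, by 11 and 18 tags on TCP and by 69 and 64 on polymer X. Per 1000 tags of the transcript, the excess was 3.60 (approximate 95% interval -1.98 to 9.17) and 5.46 (0.095 to 10.8) on TCP and 13.1 (8.87 to 17.4) and 11.5 (7.40 to 15.7) on polymer X. The values of the groups did not overlap, while the intervals of single libraries did, and the difference between the groups was not tested. An exon of this size would hold about 75.6 and 81.4 tags on TCP and 130 and 137 on polymer X at the mean density of the transcript.

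P4HA1 also has a pair of exclusive exons, of 71 bases each. The form NM_001017962 differed from NM_000917 by -25 and 0 tags on TCP and by 51 and 34 tags on polymer X. Per 1000 tags of the transcript, this was -5.95 (approximate 95% interval -10.7 to -1.16) and 0 (-4.40 to 4.40) on TCP. On polymer X it was 5.12 (2.01 to 8.23) and 3.18 (0.179 to 6.19). The values of the groups did not overlap, the interval of TCP replicate 2 overlapped those of polymer X, and the difference between the groups was not tested.

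**Figure D4:**
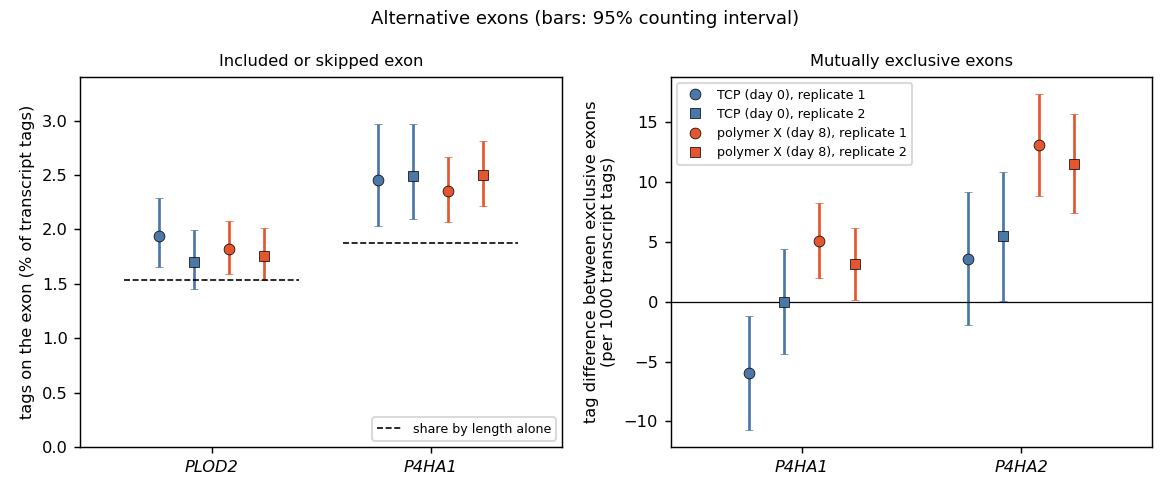
Left, percent of transcript tags on the PLOD2 exon of 63 bases and the P4HA1 exon of 54 bases in each library, with Wilson 95% intervals and the share given by length alone as a dashed line. Right, the difference in tags between the forms with either exclusive exon, per 1000 transcript tags, with approximate 95% counting intervals, NM_001017962 minus NM_000917 for P4HA1 and the 60-base minus the 66-base form for P4HA2, which was 3.60 and 5.46 on TCP and 13.1 and 11.5 on polymer X.

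Other genes of collagen biosynthesis, from a list of 39 that holds none of the 10 genes, were counted for comparison. Of the 31 tested, 3 (9.68%) were called higher, near the 10.7% of all tested genes, and 1 was called lower, against 9.45%. The median log2 fold change was 0.14. As the list was chosen with earlier results of these data known, these values are a description. EFEMP2 and PCOLCE, 2 of the 3, reached the filter on low values only on polymer X and could be called in no other direction. EFEMP2, which encodes fibulin-4 and helps bring LOX to its substrate, rose from 0.684 and 0.531 FPKM on TCP to 6.77 and 7.23 on polymer X, giving a log2 fold change of 2.32. SPARC, a collagen-binding matricellular protein, rose by 1.93 on the log2 scale, and PCOLCE, which enhances removal of the C-terminal propeptide, by 1.65. CREB3L1, a transcription factor of the endoplasmic reticulum that induces collagen genes, was the gene called lower, at -1.46. BMP1, the protease that removes this propeptide and also activates LOX, had a log2 fold change of 0.49 (adjusted p = 2.5e-05 by limma), under the minimum. COLGALT1, which adds galactose to hydroxylysine, had -0.54 (adjusted p = 1.2e-05 by limma), under the minimum as well. COLGALT2 was not tested, with at most 0.078 FPKM.

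The collagen chains, the substrates of these enzymes, were counted from a list of 44 genes. Of the 22 tested, 11 were called higher, against 10.7% of all tested genes, and 1 was called lower, against 9.45%. Of the 11, 4 (COL3A1, COL6A3, COL9A2 and COL23A1) reached the filter only on polymer X and could be called in no other direction. The list of chains was chosen with earlier results of these data known, so these counts are a description. The summed FPKM of all 44 chains was 560 and 574 on TCP and 1184 and 1231 on polymer X. The summed FPKM of the 5 hydroxylases was 234 in both TCP libraries and 430 and 450 (449.97) on polymer X. The ratio of chains to hydroxylases was 2.39 and 2.45 on TCP and 2.75 and 2.74 on polymer X. This direction turned when COL6A1 and COL6A2, chains of the beaded filament collagen VI, were left out together. Their summed FPKM was 42.7 and 41.8 on TCP and 547 and 565 on polymer X. Most of it was COL6A2, with 37.4 and 36.1 on TCP and 416 and 423 on polymer X. Neither chain was left out alone. Without these 2 chains, singled out after the values were seen, the ratio was 2.21 and 2.28 on TCP and 1.48 and 1.48 on polymer X.

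Of 30 hypoxia-inducible genes outside collagen biosynthesis, all tested, 17 were called higher, against 10.7% of all tested genes. Called lower were 0, against 9.45% (limma, 0 lower at an unadjusted p under 0.05). The median log2 fold change was 1.71. SLC2A3 and PPFIA4, 2 of the 17, reached the filter only on polymer X and could be called in no other direction. This list was chosen with earlier results of these data known, so its counts and median are a description. The part of this shift in the changes of LOX, P4HA1 and PLOD1 was not tested.

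**Figure D5:**
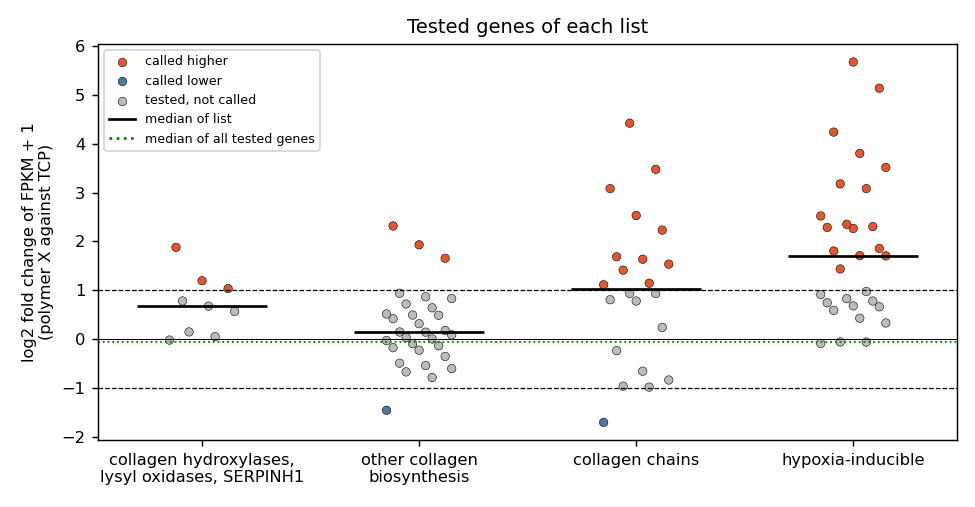
Log2 fold change of FPKM + 1 for every tested gene of the 10 collagen hydroxylases, lysyl oxidases and SERPINH1, of the other collagen biosynthesis genes, of the collagen chains and of the hypoxia-inducible genes, coloured by call, with the median of each list as a bar. The medians were 0.67, 0.14, 1.02 and 1.71, against -0.06 over all tested genes (dotted line).

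The libraries held between 38405000 and 44920000 tags, recovered from the steps between low values, and the correlation of log2(FPKM + 1) was 0.998 between TCP replicates and 0.997 between polymer X replicates. Of 8 markers for SKOV3, 5 had an FPKM of at least 1 in each TCP library and 6 in each polymer X library, ERBB2, KRT8, KRT18 and PAX8 among them, whereas MUC16 had at most 0.021. Of the 6 tested, 3 (ERBB2, PAX8 and EPCAM) were called higher, against 10.7% of all tested genes. EPCAM reached the filter only on polymer X. KRT7, KRT8 and KRT18 had -0.76, -0.87 and -0.44 on the log2 scale, which passed the adjusted p but not the minimum. The summed FPKM of 7 fibroblast markers was 17.1 and 17.8 on TCP and 81.4 and 72.0 on polymer X. Of the 4 fibroblast markers tested, 3 (COL1A2, LUM and DCN) were called higher, against 10.7% of all tested genes. LUM and DCN reached the filter on low values only on polymer X and could be called in no other direction. COL1A1 had an FPKM of 8.21 and 8.48 on TCP and 3.81 and 3.77 on polymer X. PDGFRA, PDGFRB and THY1 had at most 0.291 in any library. The summed FPKM of 3 endothelial markers was at most 0.617. Of 3 leukocyte markers, CD68 was called higher at 1.29 on the log2 scale, PTPRC had at most 0.530 and CD3E was at 0 in all 4 libraries. The marker lists were chosen with earlier results of these data known, so their counts are a description. The part of these markers in the changes of the 10 genes was not tested.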

How the data were processed

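RNA-seq libraries of SKOV3 cells were compared, 2 on TCP and 2 on polymer X. The authors deposited FPKM values for 50078 RefSeq transcripts of hg19, made with HOMER per the file headers (tags on exons, both strands). The processing notes also list STAR 2.4.0 and DESeq, whose output was not used. HOMER's version is not given in the sources used here. Since FPKM are not counts, limma 3.58.1 (R 4.3.3, trended variances) was fitted to log2(FPKM + 1) of the genes that reached an FPKM of 1 in 2 or more libraries. Per symbol, the transcript with the highest mean was used. The study's methods speak in general of independent replicates, in a number above the 2 libraries per group here, and the labels do not say that these libraries came from separate cultures, so p-values measure only the spread between these samples, which may be technical. Tags were recovered from the steps between low values (92.5% to 95.1% within 0.1 of a whole tag). The genes and lists were chosen with earlier results of these data known. All 10 genes are named. Of the other collagen biosynthesis genes, the text names the called ones with the largest change (at most 5) and P4HB, LOXL3, P4HA3, COLGALT1, COLGALT2 and BMP1. Other genes were named after their values were seen. Alternatives were another pseudocount, filter, scaling, fold minimum, variance model or sum of transcripts, a replicate block, and each library left out.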

Additional observations from a re-analysis of the deposited data

How the results depend on the processing

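The count of 3 genes called higher was 6 without a fold change minimum, 0 when a log2 fold change of 2 was required, and 2 to 3 when single libraries were omitted (the lone library of that group was assumed to vary like the others). It was 4 under quantile normalization. Without polymer X replicate 2, PLOD1 had 0.98 and was not called. PLOD3 changed sign under quantile normalization (0.094), with a common median (0.019) and among the fits without 1 library (-0.077 to 0.036), and LOXL2 among the latter (-0.024 to 0.13). Neither was called. P4HA2 was called under quantile normalization (1.09). The cause was not tested. The other collagen biosynthesis genes called higher, 3, were 1 when a mean FPKM of 5 was required, which leaves fewer genes, 5 with transcripts summed, 15 without and 1 with the higher fold change minimum, and those called lower, 1, were 0, 1, 7 and 0. The collagen chains called higher, 11, were 5 at the higher minimum, and those called lower, 1, were 2 with a pseudocount of 0.1 and with quantile normalization, 6 without and 0 with the higher minimum. The hypoxia-inducible genes called higher, 17, were 27 without a minimum. With the replicate number as a block, 3 of the 10 genes were called higher and 0 lower, as without it. No pairing was assumed, since neither labels nor methods say that a number marks a shared culture or day. Deviations from the group means correlated at 0.093 between libraries sharing a number, which cannot decide this with 2 libraries per group. Summing transcripts counts shared tags again and raised the share of LOX to 16.7% on TCP and 41.2% on polymer X. The same sum put LOX above LOXL1, P4HA2 above P4HA1 and PLOD1 above LOXL2 on TCP. The ratio of collagen chains to hydroxylases, polymer X minus TCP, was 0.322 and turned to -0.761 without COL6A1 and COL6A2 (chosen after seeing the data). Depth limits LOXL4.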
